A study of Mus musculus with 3 samples.

Results

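Lymphatic endothelial cells line the vessels that drain fluid and immune cells from tissue, and here they were followed in the mouse femoral artery after wire injury. The cells were taken from 3 droplet single-cell RNA libraries as the barcodes in which at least 3 of the 6 genes Prox1, Lyve1, Mmrn1, Ccl21a, Flt4 and Reln were detected, including Prox1 or Mmrn1, with at most 1 molecule each of the leukocyte genes Csf1r and Ptprc. Of 30135 barcodes with at least 300 genes and at most 15% mitochondrial RNA, 465 met the rule: 311 of 7451 in the Sham library, 26 of 11473 in the D2 library and 128 of 11211 in the D7 library. Every library was made from live single cells sorted from the femoral arteries of wild-type (WT) male mice, 8 weeks old, with the cells of 6 mice pooled per library. The Sham animals had a mock operation, and the D2 and D7 animals were taken 2 and 7 days after femoral artery injury (FAI), in which a wire is passed through the vessel. The day on which Sham arteries were taken, and whether tissue around the artery was removed, are not given in the sources used here. With 1 library per group no comparison between groups has a replicate check, so no test across groups is given. The 95% intervals printed here cover counting error only and are too narrow where a few cells hold most molecules of a gene.

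Lymphatic endothelium arises from veins when the transcription factor Prox1 is switched on, and its growth depends on the receptor VEGFR3, encoded by Flt4, which binds VEGF-C and VEGF-D. Blunt-ended capillaries carry the hyaluronan receptor LYVE1 and release the chemokine CCL21, which guides dendritic cells and T cells through its receptor CCR7. Collecting vessels downstream have little LYVE1 and hold valves that depend on Foxc2, integrin alpha-9 and connexins. In the arterial wall lymphatic vessels run in the outer layer, the adventitia.

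The 3 libraries held 39756684, 98260210 and 100571340 unique molecular identifiers (UMIs, each standing for 1 captured RNA molecule) in Sham, D2 and D7. Lymphatic endothelial cells had medians of 4735, 10921 and 6521 UMIs per cell in that order, and their summed counts were 1648926, 407864 and 948570 UMIs. Levels are given as UMIs per 1000000 UMIs of those sums (CPM). The smallest group, D2, rests on 26 cells, and its 3 deepest cells alone held 35.5% of the D2 UMIs, against 3.70% for the 3 deepest Sham cells and 9.92% for the 3 deepest D7 cells. Between 17 and 27 barcode sequences were shared by each pair of libraries, and none of them was a lymphatic endothelial cell in both. No barcode was removed as a doublet. Scrublet called 54, 473 and 226 of all kept barcodes in Sham, D2 and D7, among them 3, 0 and 3 lymphatic endothelial cells.

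A small set of the cells went against the label. In 19 cells, 10 from Sham, 0 from D2 and 9 from D7, at least 1% of the UMIs came from 8 fibroblast marks such as Col1a1, Col3a1 and Dcn. These cells held 98.1% of all fibroblast-mark UMIs of the D7 cells and 88.3% of those of the Sham cells, and they are called mixed cells here. Their Prox1 level was 127 CPM and their Pecam1 level 162 CPM, while Col3a1 reached 14662 CPM. The 8 fibroblast marks together summed to 1381, 12.3 and 11892 CPM in all Sham, D2 and D7 lymphatic endothelial cells. Results that rest on the mixed cells are therefore given with and without them, and results that rest on the 3 deepest D2 cells likewise.

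The genes of the rule describe the choice of the cells and are no result. Prox1 was at 618, 826 and 653 CPM in the Sham, D2 and D7 cells, and Mmrn1, an endothelial adhesive glycoprotein, at 3545, 1659.9 and 2108 CPM in the Sham, D2 and D7 cells. The most abundant of the 6 was Ccl21a, which has nearly identical annotated gene copies, at 17448, 12217 and 14905 CPM in the Sham, D2 and D7 cells. Over all deposited barcodes, 1 Ccl21a row held 31099, 5994 and 16528 UMIs in Sham, D2 and D7. Each other Ccl21 row had at most 2 UMIs in any library. How reads shared by such copies were placed was not tested. Lyve1 was at 2077, 1481 and 908 CPM in the Sham, D2 and D7 cells. Reln, the secreted glycoprotein reelin, was at 1517, 1015 and 847 CPM in the Sham, D2 and D7 cells, and Flt4 at 753, 613 and 489 CPM in the Sham, D2 and D7 cells. All 6 genes were detected in 198 Sham, 17 D2 and 79 D7 cells, and 31, 2 and 9 cells just met the rule with 3. Just outside it, 15 Sham, 1 D2 and 12 D7 barcodes had 2 of the 6 genes including Prox1 or Mmrn1, and a further 19, 4 and 25 barcodes had 3 or more but over 1 Csf1r or Ptprc UMI. The general endothelial genes Pecam1 or Cdh5, which the rule did not use, had a UMI in 283 of 311 Sham cells, 25 of 26 D2 cells and 127 of 128 D7 cells.

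Genes that the rule did not use placed the cells with lymphatic endothelium in every library. Pdpn, the membrane glycoprotein podoplanin, was at 411, 368 and 463 CPM in the Sham, D2 and D7 cells, against 7.54, 0.873 and 29.7 CPM in blood endothelial cells of the same libraries. The blood endothelial cells, 407 in Sham, 76 in D2 and 368 in D7, were taken as barcodes with at least 3 of Pecam1, Cdh5, Egfl7, Ptprb, Flt1 and Plvap, including Flt1 or Plvap, no Prox1 or Mmrn1 UMI and the same limit on Csf1r and Ptprc. The vein and lymphatic transcription factor Nr2f2 was at 784, 755 and 455 CPM in the Sham, D2 and D7 cells, against 112, 217 and 166 CPM in blood endothelial cells. Sox18, which acts upstream of Prox1 and is also used by blood vessels, was at 289, 319 and 300.5 CPM in the Sham, D2 and D7 cells, against 370.2, 417 and 336 CPM in blood endothelial cells. Tbx1, a transcription factor needed for lymphatic growth in mice, was at 102, 105 and 149.7 CPM in the Sham, D2 and D7 cells and at most 3.75 CPM in blood endothelial cells. Ackr2, a decoy receptor that clears inflammatory CC chemokines, was at 80.7, 118 and 109.6 CPM in the Sham, D2 and D7 cells, against 1.74, 0 and 0 CPM in blood endothelial cells. The 12 listed genes of lymph node lymphatics, several of which other endothelium also uses, summed to 1520.4, 1047 and 974 CPM in the Sham, D2 and D7 cells. Most of that came from Cav1, the coat protein of caveolae, with 1216, 252 and 587 UMIs, and from Ackr3 and Btnl9. The 4 markers set for this cell type, Ackr4, Madcam1, Marco and Itga2b, had at most 10 UMIs each in any library. Marks of mural cells, T cells, B cells and Schwann cells each summed to at most 45.3 CPM in any library. Neutrophil marks summed to 19.4, 95.6 and 36.9 CPM in the Sham, D2 and D7 lymphatic cells, and mesothelial and perineurial marks to 32.7, 78.5 and 84.3 CPM. Macrophage marks summed to 106, 179 and 206 CPM in Sham, D2 and D7 lymphatic cells, and the part of these marks in the values below was not tested.

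**Figure D1:**
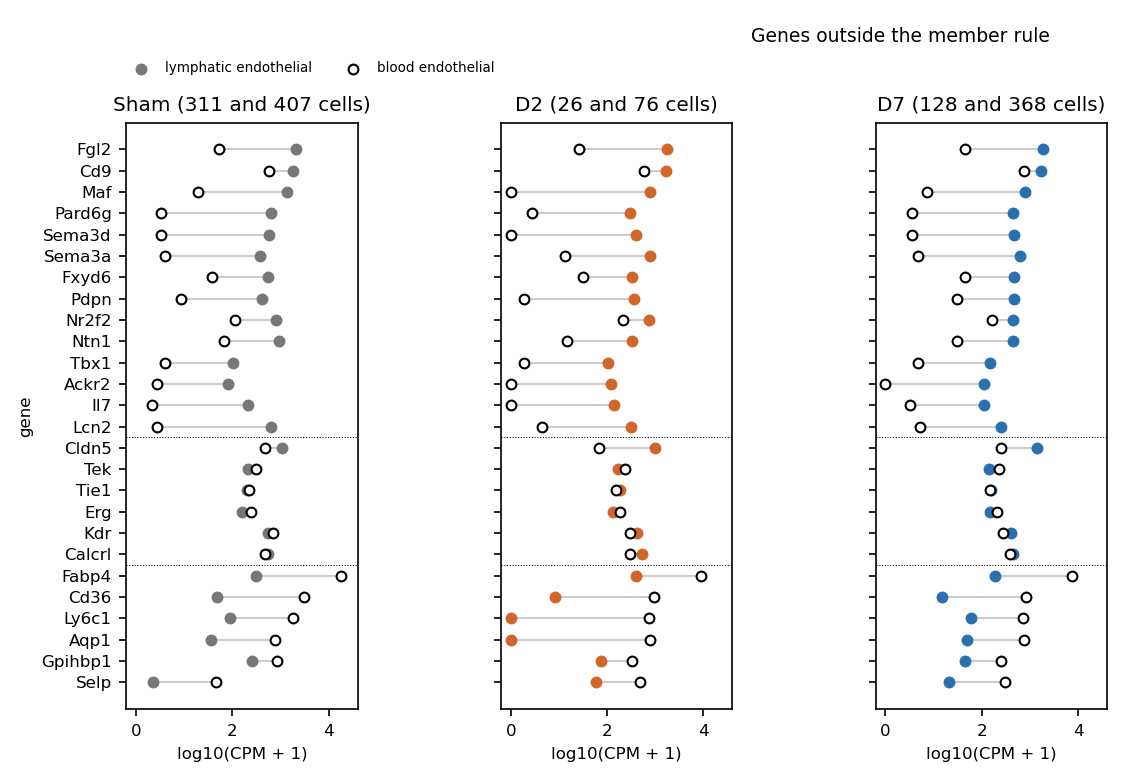
Levels as log10(CPM + 1) in lymphatic endothelial cells (filled) and blood endothelial cells (open) of the Sham, D2 and D7 libraries, for 14 lymphatic genes (top), 6 general endothelial genes (middle) and 6 blood endothelial genes (bottom), none of them used to choose the lymphatic cells. The filled points lie right of the open ones for the 14 lymphatic genes and left of them for the 6 blood endothelial genes in all 3 libraries.

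Set against blood endothelial cells, the lymphatic cells shared a high set of genes in all 3 libraries. A gene is called apart here when the ratio of (CPM + 1) was at least 2 and the higher side had at least 50 CPM, 20 UMIs and a UMI in at least 5 cells and 10% of cells. Of 3543 genes at that level in each library and outside both rules, 238 (6.72%) were higher in lymphatic cells in all 3 libraries and 189 (5.33%) were lower in all 3. Ranked by the library with the smallest difference, the first gene was Sh3gl3, which encodes the membrane-curving protein endophilin-A3. It had 219.5, 184 and 202 CPM in the Sham, D2 and D7 cells and no UMI in blood endothelial cells of any library, so that it was at least 126-fold higher in Sham, at least 70.2-fold higher in D2 and at least 179.7-fold higher in D7 against a floor of 3 UMIs over the blood endothelial cells. The axon-guidance ligands Sema3d and Sema3a were both in this set. Sema3d was at 583, 407 and 472 CPM in the Sham, D2 and D7 cells, against 2.32, 0 and 2.63 CPM in blood endothelial cells. Sema3a, whose product keeps smooth muscle away from lymphatic valves in mice, was at 369, 782 and 621 CPM in the Sham, D2 and D7 cells, against 2.90, 12.2 and 3.75 CPM in blood endothelial cells. Maf, a transcription factor, was at 1337, 765 and 803 CPM in the Sham, D2 and D7 cells, against 18.6, 0 and 6.38 CPM, and the fibrinogen-like protein gene Fgl2 at 2049.8, 1714 and 1848 CPM in the Sham, D2 and D7 cells, against 51.6, 25.3 and 43.2 CPM. Among secreted factors, Il7, which keeps lymphocytes alive, was at 212, 137 and 112 CPM in the Sham, D2 and D7 cells, against 1.16, 0 and 2.25 CPM in blood endothelial cells. Lcn2, whose product binds iron-carrying siderophores, was at 626, 311 and 256 CPM in the Sham, D2 and D7 cells, against 1.74, 3.49 and 4.13 CPM. Pard6g, a cell polarity gene, Slc45a3, a transporter, Ston2, an endocytosis adaptor, and Plce1, a phospholipase C, were also among the 12 steadiest genes and were at 145 CPM or more in lymphatic cells of every library.

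Genes steadily lower in lymphatic cells included transcription factors of arterial endothelium. Mecom, a transcription factor linked to arterial fate, was at 15.2, 0 and 5.27 CPM in the Sham, D2 and D7 cells, against 982, 1026 and 1219.9 CPM in blood endothelial cells. Dach1, a transcription factor of coronary and arterial growth in mice, had 4, 0 and 0 UMIs in Sham, D2 and D7 lymphatic cells, against 537, 320.3 and 263 CPM in blood endothelial cells. Sparcl1, Cytl1, Zfp366 and Ccdc85a were at most 9.10 CPM in lymphatic cells of any library, against at least 108 CPM in blood endothelial cells. Fabp4, a fatty acid carrier of capillary endothelium, was at 312, 397 and 187 CPM in the Sham, D2 and D7 cells, against 18319.9, 8838 and 7498 CPM in blood endothelial cells. Of the 22 lymphatic genes listed outside the rule, 17 of 20 at level were higher in Sham lymphatic cells, 17 of 18 in D2 and 16 of 18 in D7, against 11.9%, 13.4% and 9.18% of all genes, with medians of 3.84, 5.15 and 3.73 on the log2 scale. Of the blood endothelial genes listed outside both rules, 11 of 11 at level were lower in Sham lymphatic cells, 12 of 13 in D2 and 13 of 13 in D7, against 12.2%, 8.28% and 8.36% of all genes, with medians of -5.17, -7.11 and -3.92. Claudin-5, the endothelial tight junction protein encoded by Cldn5, was higher in lymphatic cells, with 1070.4, 995.4 and 1413 CPM in the Sham, D2 and D7 cells, against 485, 68.1 and 255 CPM. Kdr, the receptor VEGFR2, was at 539, 417 and 396 CPM in the Sham, D2 and D7 cells, against 698, 303 and 274 CPM.

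Lymphatic endothelial cells formed a smaller part of the injured libraries than of the Sham library. Among all kept barcodes they were 4.17% (3.73 to 4.65%) in Sham, 0.227% (0.148 to 0.332%) in D2 and 1.14% (0.953 to 1.36%) in D7, with exact Clopper-Pearson intervals. The D2 share was 18.4-fold lower than in Sham (95% interval 12.3 to 28.6) and the D7 share 3.66-fold lower (2.97 to 4.53). Leukocyte barcodes, those with at least 3 of 7 leukocyte genes, numbered 11004 of 11473 in D2 and 7272 of 11211 in D7, against 2369 of 7451 in Sham, and they stand in the denominator of the first share. Among barcodes that were no leukocytes, the share was 6.12% (5.48 to 6.81%) in Sham, 5.54% (3.65 to 8.02%) in D2 and 3.25% (2.72 to 3.85%) in D7. The D2 and Sham values lay within each other's intervals, while the D7 share was 1.88-fold lower than in Sham (1.53 to 2.33). Within endothelium, taken as lymphatic plus blood endothelial cells, lymphatic cells made up 43.3% (39.7 to 47.0%) in Sham, 25.5% (17.4 to 35.1%) in D2 and 25.8% (22.01 to 29.9%) in D7. The share within endothelium was 1.70-fold lower in D2 than in Sham (1.14 to 2.64) and 1.68-fold lower in D7 than in Sham (1.36 to 2.08), and the ratio of D7 over D2 was 1.012 (0.660 to 1.61). Depth touches the non-leukocyte share, also through its denominator. With the member and leukocyte rules both read on 1000 UMIs per barcode it was 1.27% in D2 and 1.86% in D7. These were 0.221 and 0.325 times the Sham share. In that setting the D2 share of all barcodes was 0.206%, near the 0.227% at full depth. The fall of the D2 non-leukocyte share thus lay mostly in a larger set of barcodes not called leukocytes. Read in the same way, the D2 and D7 shares were 0.0471 and 0.224 times the Sham share among all barcodes and 0.632 and 0.626 times within endothelium, close to the values at full depth. The part of dissociation and sorting in these shares was not tested.

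**Figure D2:**
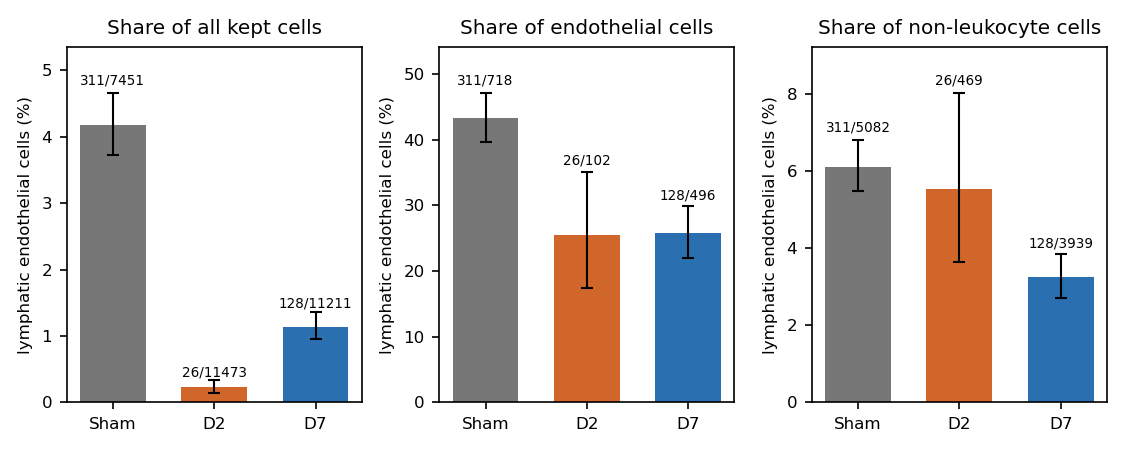
Share of lymphatic endothelial cells in percent, in the Sham, D2 and D7 libraries, of all kept barcodes, of lymphatic plus blood endothelial barcodes, and of barcodes that are no leukocytes; bars are the shares, lines their exact 95% intervals of counting error, and the numbers are cells over the denominator. The Sham bar is the highest in each panel, and the D2 interval overlaps the Sham interval only in the non-leukocyte panel.

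At 2 days the lymphatic cells had less Igfbp5, Ptn and Tgfb2 RNA than Sham cells. They had more of Serpina3n, Plvap and some glycolysis genes, such as Gapdh and Ldha. The number of cell cycle genes called higher depended on the 3 deepest D2 cells. Of 4249 genes at level, 635 (14.9%) were apart: 359 (8.45%) were at least 2-fold higher in D2 than in Sham cells and 276 (6.5%) at least 2-fold lower, and the median log2 ratio of all genes was 0.14. A gene can come to level through its higher library alone, so the list counts given below are descriptions. The split depends on the scaling: 56.5% of the genes apart were higher with CPM of all UMIs, 32.4% with the median of gene ratios as scale, 42.0% without the 20 most abundant and mitochondrial genes in the total, and 43.8% without 6 transcripts that resemble ribosomal RNA. Without the 3 deepest D2 cells, 261 genes were higher and 290 lower, and 198 of the 359 and 216 of the 276 were among them.

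Igfbp5, a secreted protein that binds insulin-like growth factors, was the most abundant of the genes named as lower. It was at 3459, 216 and 323 CPM in the Sham, D2 and D7 cells, which was 16.03-fold lower (95% interval 13.0 to 20.02) in D2 and 10.7-fold lower (95% interval 9.55 to 12.1) in D7 than in Sham. After each cell was thinned to 1000 UMIs, 69.6%, 24.0% and 12.5% of Sham, D2 and D7 lymphatic cells had an Igfbp5 UMI (unthinned 83.3%, 50% and 28.1%), against 3.10%, 0.253% and 0.892% of B cells thinned alike, a class that should lack the gene and whose median depths were 4266, 4803.5 and 3738 UMIs. The difference was kept in both reduced sets: Igfbp5 was at 374 CPM in D7 cells against 3458 CPM in Sham cells without mixed cells and at 312 CPM without the 3 deepest D2 cells. It was also lower outside the lymphatic cells, with 237, 0 and 96.1 CPM in Sham, D2 and D7 blood endothelial cells and 1186, 4.42 and 156 CPM in all other kept barcodes. Ptn, the heparin-binding growth factor pleiotrophin, followed the same order with 418, 24.5 and 75.9 CPM in the Sham, D2 and D7 cells, 17.0-fold lower (95% interval 9.21 to 35.7) in D2 than in Sham. Here blood endothelial cells were at 12.2, 2.62 and 10.9 CPM.

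Other genes lower in D2 were metabolic or signalling genes. Cyp4b1, a cytochrome P450 enzyme, had 1 UMI in the D2 cells, with 2.45 CPM in D2 cells against 145 CPM in Sham cells. Agmo, which cleaves ether lipids, was at 2.45 CPM in D2 cells against 115 CPM in Sham cells. Both differences rest on 1 D2 UMI, which was in 1 of the 3 deepest cells, and the ratios were 59.1-fold lower (95% interval 10.5 to 2345) and 46.7-fold lower (95% interval 8.29 to 1856). Cxcl12, the ligand of CXCR4, was at 100.1, 7.36 and 155 CPM in the Sham, D2 and D7 cells. The D7 level rested on mixed cells and was 21.8 CPM without them. Sham also held 10 mixed cells and D2 0, and their part in the Sham level of Cxcl12 is not given here. Tgfb2, a TGF-beta ligand, was at 188, 27.0 and 155 CPM in the Sham, D2 and D7 cells, 6.97-fold lower (95% interval 3.84 to 14.1) in D2 than in Sham. Plxdc2, a plexin-domain membrane protein, was at 14.7 CPM in D2 cells against 121 CPM in Sham cells, and at 3.80 CPM in D2 without the 3 deepest cells. Ntn1, the guidance protein netrin-1, was at 907, 331 and 438 CPM in the Sham, D2 and D7 cells and was one of 3 lymphatic genes apart downward in D2, with Hoxd8 and Pard6g. The lymphatic list as a whole had 1 of 19 higher and 3 of 19 lower, against 8.45% and 6.5% of all genes, and a median log2 ratio of -0.09.

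Among genes higher in D2, Serpina3n, an acute-phase inhibitor of serine proteases, was found in most D2 cells. It was at 24.9, 380.0 and 350.0 CPM in the Sham, D2 and D7 cells, 15.3-fold higher (95% interval 10.8 to 22.1) in D2 and 14.1-fold higher (95% interval 10.2 to 19.98) in D7 than in Sham. Thinned to 1000 UMIs, 2.68%, 28.0% and 18.8% of Sham, D2 and D7 lymphatic cells had a UMI of it (unthinned 9.97%, 73.1% and 50%), against 0%, 0.758% and 1.019% of B cells. It held without the 3 deepest D2 cells, at 459.9 CPM, and without mixed cells, at 296 CPM in D7 cells against 26.7 CPM in Sham cells. Blood endothelial cells had 3.48, 6.98 and 68.0 CPM of it in Sham, D2 and D7. Lgals1, the sugar-binding protein galectin-1, was at 91.6, 841 and 566 CPM in the Sham, D2 and D7 cells and, without mixed cells, at 198 CPM in D7 cells against 65.1 CPM in Sham cells. Fblim1, an adaptor at cell-matrix contacts, was at 18.2, 154 and 84.3 CPM in the Sham, D2 and D7 cells and at 198 CPM in D2 without the 3 deepest cells. Actn1, the actin cross-linker alpha-actinin-1, was at 114, 341 and 241 CPM in the Sham, D2 and D7 cells. It was the only gene of 14 at level in the junction and cytoskeleton list that was apart in either injured library. Of all genes, 14.9% were apart in D2 and 9.12% in D7. Sema3a was 2.12-fold higher (95% interval 1.84 to 2.43) in D2 than in Sham.

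For other genes the D2 level rested wholly or partly on a handful of cells. Tnc, the matrix glycoprotein tenascin-C, was at 6.67, 547 and 120.2 CPM in the Sham, D2 and D7 cells, yet 3 cells held 99.1% of its D2 UMIs and only 5 of 26 cells had any. Hmox1, which breaks down haem, was at 7.88, 127 and 195 CPM in the Sham, D2 and D7 cells, with 94.2% of the D2 UMIs in 3 cells and 89.7% of the D7 UMIs in 3 cells. Cell cycle genes were the list with the largest median in D2, at a log2 ratio of 2.82. Of 27 listed, 8 were at level and all 8 were higher than in Sham, against 8.45% of all genes. A gene is at level when it passes in either library, and most of these genes passed only through their high D2 level. In Sham, lymphatic or blood endothelial cells brought only 1 gene of the list to level. The count of 8 is therefore a description and no support. Top2a, which untangles DNA in dividing cells, was at 16.4, 110.3 and 5.27 CPM in the Sham, D2 and D7 cells, in 3, 5 and 4 cells, and at 11.4 CPM in D2 without the 3 deepest cells, below the Sham level. Cks2, a partner of cyclin-dependent kinases, was at 4.85, 101 and 12.7 CPM in the Sham, D2 and D7 cells and at 41.8 CPM in D2 without those cells. Stmn1, which binds tubulin, was at 40.0, 240.3 and 53.8 CPM in the Sham, D2 and D7 cells and at 106 CPM in D2 without them. With the 3 deepest D2 cells left out, 2 cell cycle genes remained at level and 1 was apart. Cks2 and Stmn1 stayed above their Sham levels, and the limits on CPM and UMIs are harder to reach with fewer cells.

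In the glycolysis and hypoxia list, 7 of 12 genes at level were higher in D2 and 0 lower, against 8.45% and 6.5% of all genes, and the median log2 ratio was 1.11, and without the 3 deepest D2 cells the count was again 7 of 12, with a median of 1.09. Gapdh was at 221, 797 and 308 CPM in the Sham, D2 and D7 cells, 3.61-fold higher (95% interval 3.10 to 4.20) in D2 than in Sham. Pgk1, phosphoglycerate kinase, was at 38.8, 142 and 48.5 CPM in the Sham, D2 and D7 cells, and Ldha, which makes lactate from pyruvate, at 74.6, 279.5 and 168 CPM in the Sham, D2 and D7 cells. In D7 only Ldha of this list was apart from Sham, among 10 genes at level. Blood endothelial cells of the same libraries had 326, 1086 and 556 CPM of Gapdh and all other barcodes 351, 834 and 593 CPM in Sham, D2 and D7. The unfolded protein response list had 2 of 14 higher in D2, Creld2 and Sdf2l1, with a median of 0.42, and 1 of 13 without the 3 deepest D2 cells. Creld2, an endoplasmic reticulum stress gene, was at 30.3, 90.7 and 20.03 CPM in the Sham, D2 and D7 cells and was found in 19 of 26 D2 cells. It too came to level only through D2.

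Some antigen presentation and early-response genes were lower in D2. Of 8 antigen presentation genes at level, 5 were lower and 0 higher in D2, against 6.5% and 8.45% of all genes, with a median log2 ratio of -1.04. H2-K1, a classical MHC class I heavy chain, was at 406, 199 and 378 CPM in the Sham, D2 and D7 cells, and H2-T23, a non-classical one, at 311, 110.3 and 178 CPM in the Sham, D2 and D7 cells. The MHC class II invariant chain gene Cd74 was at 66.7, 24.5 and 78.0 CPM in the Sham, D2 and D7 cells, against 4267, 4680.0 and 2894 CPM in all other barcodes, and its D2 direction turned with the mean over cells. Leaving mixed cells out, 3 of 7 were lower and the median was -0.92, and leaving out the 3 deepest D2 cells, 3 of 8 were lower and the median was -0.88. Of 9 interferon genes at level, 3 were lower in D2, among them Iigp1, an interferon-induced GTPase, at 156, 49.0 and 53.8 CPM in the Sham, D2 and D7 cells. In the dissociation and early-response list, 8 of 18 were lower and 2 higher, with a median of -0.89, or 6 lower and 3 higher with a median of -0.47 without the mixed Sham cells. Fos, an immediate early transcription factor, was at 454, 113 and 564 CPM in the Sham, D2 and D7 cells at 53.2 CPM in D2 without the 3 deepest cells, and at 273 CPM in Sham without mixed cells. The 2 higher genes were the heat shock genes Hspa1b and Hsp90aa1, at 142 and 571 CPM in D2 cells against 55.8 and 246 CPM in Sham cells. Without the 3 deepest D2 cells 9 of 18 genes of the list were lower and 0 higher, so the heat shock genes were no longer apart. Early-response genes also move with tissue dissociation, whose part in these levels was not tested.

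Genes of blood-vessel type did not move as one list in the lymphatic cells. Plvap, which forms the diaphragms of fenestrae and caveolae, was at 136, 399.6 and 512 CPM in the Sham, D2 and D7 cells, 2.94-fold higher (95% interval 2.39 to 3.62) in D2 and 3.77-fold higher (95% interval 3.21 to 4.44) in D7 than in Sham. After thinning, 10.7%, 52.0% and 30.5% of Sham, D2 and D7 lymphatic cells had a Plvap UMI (unthinned 24.4%, 76.9% and 77.3%), against 0%, 0% and 0.51% of B cells, and without mixed cells the levels were 574 CPM in D7 cells against 143 CPM in Sham cells. Blood endothelial cells, chosen in part by Plvap, had 957, 1190.4 and 869.6 CPM. Selp, the leukocyte adhesion receptor P-selectin, was at 1.21, 58.8 and 20.03 CPM in the Sham, D2 and D7 cells, with a UMI in 2, 12 and 12 of them. Gpihbp1, which holds lipoprotein lipase on capillary endothelium, was lower instead, with 251, 73.6 and 44.3 CPM in the Sham, D2 and D7 cells (30.4 CPM in D2 without the 3 deepest cells), 5.67-fold lower (95% interval 4.12 to 7.99) in D7 than in Sham, while blood endothelial cells had 859, 329.9 and 247 CPM. Fabp4, Cd36 and Aqp1, more abundant marks of blood capillaries, were at most 397 CPM in any library.

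**Figure D3:**
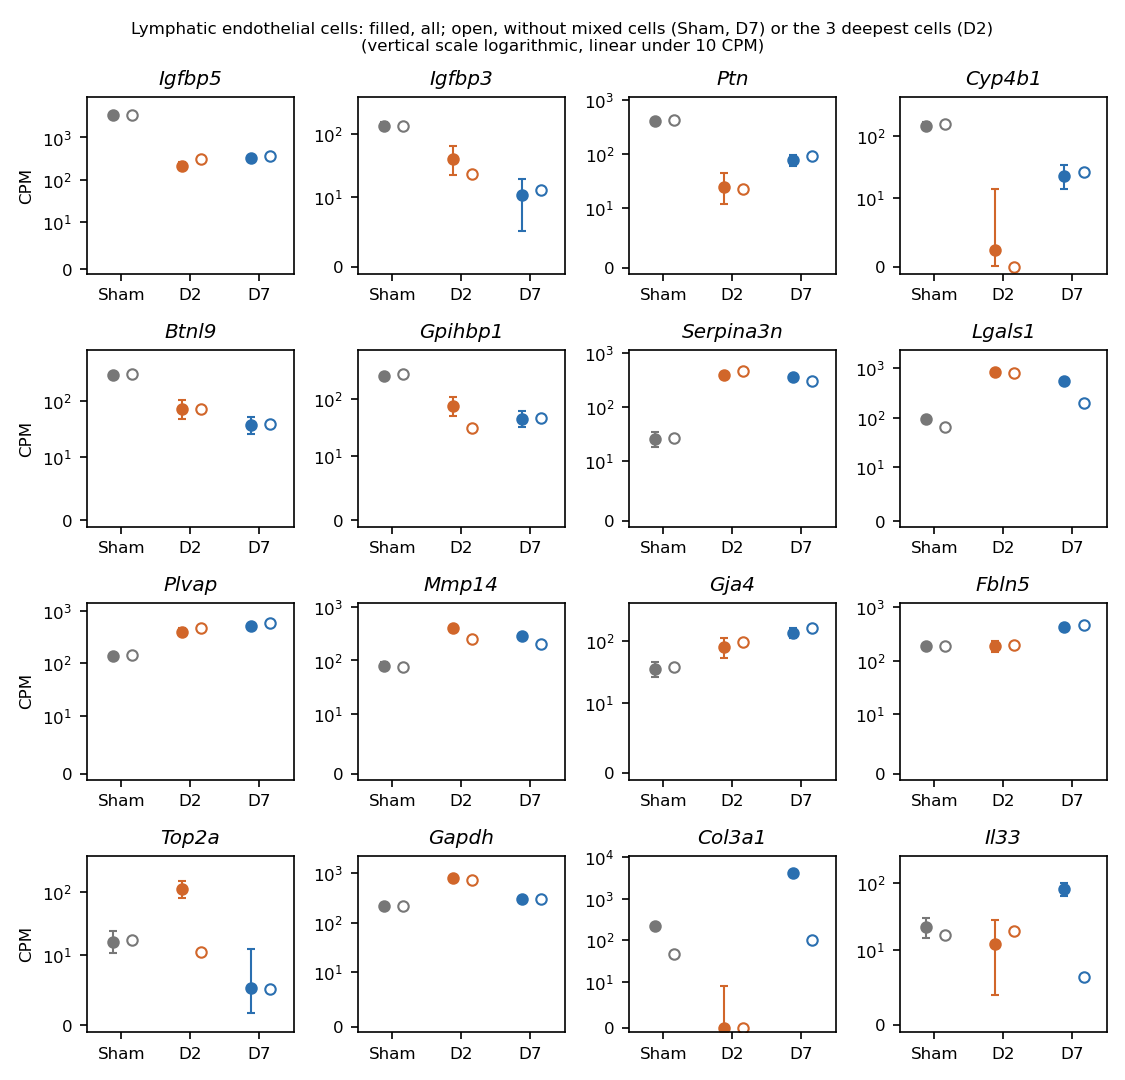
CPM of 16 genes in Sham, D2 and D7 lymphatic endothelial cells; filled points are all cells with exact 95% counting intervals, open points are Sham and D7 without mixed cells and D2 without its 3 deepest cells. Igfbp5, Ptn, Btnl9 and Cyp4b1 are highest in Sham and Serpina3n and Plvap lowest in Sham in both filled and open points. The high D2 point of Top2a and the high D7 point of Il33 are not kept by the open points. The open D7 point of Col3a1 is far lower than the filled one but stays above the open Sham point.

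At 7 days the lymphatic cells again had less Igfbp5 than Sham cells, and also less Igfbp3, Btnl9, Tppp3 and Gpihbp1, while Serpina3n, Plvap and Fbln5 were higher. Of 4144 genes at level, 378 (9.12%) were apart between D7 and Sham cells, 191 (4.61%) of them higher and 187 (4.51%) lower in D7, with a median log2 ratio of 0.07 over all genes. Among those apart, 50.5% were higher with CPM of all UMIs and 40.4% with the median of gene ratios as scale. Without the 19 mixed cells, 159 genes were higher and 173 lower, of which 126 and 149 were among the first counts. Igfbp3, a second binding protein of insulin-like growth factors, was at 10.5 CPM in D7 cells against 133 CPM in Sham cells, 12.6-fold lower (95% interval 6.72 to 26.6). Btnl9, a butyrophilin-like membrane protein, was at 36.9 CPM in D7 cells against 283 CPM in Sham cells, 7.68-fold lower (95% interval 5.44 to 11.2). Aph1b, a subunit of gamma-secretase, was at 19.0 CPM in D7 cells against 126 CPM in Sham cells, Tppp3, which promotes tubulin assembly, at 104 CPM in D7 cells against 586 CPM in Sham cells, and Cyp4b1 at 22.1 CPM in D7 cells against 145 CPM in Sham cells. These 6 lowest genes, Igfbp5 included, were lower in D7 without the mixed cells too, by 4.73-fold to 10.2-fold. In blood endothelial cells Btnl9 was at 339, 45.4 and 55.6 CPM for Sham, D2 and D7, but Igfbp3 at 103, 59.3 and 188 CPM.

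The 6 highest ratios in D7 belonged to Sfrp4, Col1a1, Lum, Col3a1, Hmox1 and Timp1. Nearly all of the D7 level of the first 4 was carried by the mixed cells. Without those cells all 6 ratios were smaller, and all 6 genes remained higher in D7. Most D7 UMIs of Hmox1 were in a few cells, as given above. Col1a1 and Col3a1, chains of fibrillar collagens, were at 3311 and 4149 CPM in D7 cells against 115 and 222 CPM in Sham cells. Without mixed cells they were at 66.8 and 104 CPM in D7 cells against 30.6 and 45.6 CPM in Sham cells, and all other D7 barcodes averaged 8080.0 and 9949.7 CPM. B cells of the D7 library, which should make no collagen, had 3009 CPM of Col3a1. Sfrp4, a secreted Wnt antagonist, was at 381 CPM in D7 cells against 11.5 CPM in Sham cells, and at 8.995 CPM in D7 cells against 2.604 CPM in Sham cells without mixed cells. Lum, the collagen-binding proteoglycan lumican, was at 364 CPM in D7 cells against 15.2 CPM in Sham cells, and at 10.3 CPM in D7 cells against 4.56 CPM in Sham cells without them. Hmox1 was at 195 CPM in D7 cells against 7.88 CPM in Sham cells and at 52.7 CPM in D7 cells against 8.46 CPM in Sham cells without them.

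In the basement membrane and matrix list, 9 of 22 genes at level were higher and 2 lower in D7, against 4.61% and 4.51% of all genes, with a median log2 ratio of 0.41, and 6 of 19 were higher without mixed cells, with a median of 0.50. Fbln5, fibulin-5 of elastic fibres, was at 187, 189 and 434 CPM in the Sham, D2 and D7 cells, 2.32-fold higher (95% interval 2.00 to 2.69) in D7 than in Sham and 2.57-fold higher (95% interval 2.20 to 3.01) without mixed cells. Mmp14, a membrane-bound metalloproteinase that cleaves collagen, was at 79.4, 402 and 289 CPM in the Sham, D2 and D7 cells, at 251 CPM in D2 without the 3 deepest cells and, without mixed cells, at 203 CPM in D7 cells against 76.8 CPM in Sham cells. Timp1, an inhibitor of metalloproteinases, was at 3.64, 44.1 and 101 CPM in the Sham, D2 and D7 cells and, without mixed cells, at 38.6 CPM in D7 cells against 3.25 CPM in Sham cells. Emilin1, an elastic-fibre protein that anchors lymphatic vessels in mice, was at 36.4, 105 and 84.3 CPM in the Sham, D2 and D7 cells. Nid2, a basement membrane linker, was lower, with 82.5, 39.2 and 14.8 CPM in the Sham, D2 and D7 cells, and Tgfbi, a TGF-beta-induced matrix protein, was at 207, 31.9 and 59.0 CPM in the Sham, D2 and D7 cells. Sparc, a collagen-binding protein, was at 272, 508 and 2593 CPM in the Sham, D2 and D7 cells, and without mixed cells it was at 334 CPM in D7 cells against 89.2 CPM in Sham cells.

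Of 11 valve and collecting-vessel genes at level, 2 were higher and 1 lower in D2, where 14.9% of all genes were apart, and 2 were higher and 2 lower in D7, where 9.12% of all genes were apart. The list medians were -0.05 and 0.01. Foxc2, the transcription factor of valve formation, was at 52.2, 29.4 and 50.6 CPM in the Sham, D2 and D7 cells, and Itga9, integrin alpha-9, at 396, 233 and 249 CPM in the Sham, D2 and D7 cells. Gja4, the gap junction protein connexin 37, was at 35.2, 78.5 and 134 CPM in the Sham, D2 and D7 cells, 3.81-fold higher (95% interval 2.77 to 5.29) in D7 than in Sham, and Gja1, connexin 43, at 331, 363 and 333 CPM in the Sham, D2 and D7 cells. Angpt2, a ligand of the receptor Tie2 that lymphatic growth needs, was at 47.3, 149.6 and 59.0 CPM in the Sham, D2 and D7 cells, 3.16-fold higher (95% interval 2.22 to 4.48) in D2 than in Sham. Klf4, a transcription factor that responds to flow, was at 390.0, 139.8 and 189.8 CPM in the Sham, D2 and D7 cells, and Dll4, a Notch ligand, at 67.9, 29.4 and 20.03 CPM in the Sham, D2 and D7 cells. Piezo2, a mechanically gated channel, was at 576, 343 and 266 CPM in the Sham, D2 and D7 cells, and Piezo1 at 85.5, 137 and 142 CPM in the Sham, D2 and D7 cells. In the Notch and flow list, 1 of 12 was higher and 2 of 12 lower in D2, with a median of -0.50, and 1 of 12 was higher and 3 of 12 lower in D7, with a median of -0.02.

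In the list of VEGF receptors and lymphangiogenic regulators, 1 of 14 genes was higher and 1 lower in D2 and 0 of 15 higher and 1 lower in D7, near the 14.9% and 9.12% of all genes that were apart. The lower gene in both was Dusp6, which turns off ERK signalling, at 116, 56.4 and 47.4 CPM in the Sham, D2 and D7 cells. Nrp2, the co-receptor of VEGFR3, was at 702, 758 and 582 CPM in the Sham, D2 and D7 cells. Spns2, which exports the lipid sphingosine-1-phosphate that draws lymphocytes out of tissue, was at 163, 162 and 228 CPM in the Sham, D2 and D7 cells. Itga6, integrin alpha-6, was at 109, 196 and 219 CPM in the Sham, D2 and D7 cells, 2.02-fold higher (95% interval 1.65 to 2.48) in D7 than in Sham. Thy1, a surface glycoprotein also found on lymphatic endothelium in mice, was at 383, 269.7 and 161 CPM in the Sham, D2 and D7 cells, 2.38-fold lower (95% interval 1.99 to 2.85) in D7 than in Sham. Of the 19 lymphatic genes at level, Thy1, Ntn1 and Hoxd8 were lower in D7 and none was higher.

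In the remaining lists single genes were apart, at shares to be read against the 14.9% in D2 and 9.12% in D7 of all genes. In the TGF-beta and BMP list 1 of 10 genes was higher and 2 lower in D2 and 2 of 11 higher in D7, with medians of 0.31 and -0.12. Id3, a transcriptional inhibitor induced by BMP signals, was at 207, 397 and 419 CPM in the Sham, D2 and D7 cells, and Bmp6, a BMP ligand, at 24.9, 12.3 and 58.0 CPM in the Sham, D2 and D7 cells. Plau, the urokinase plasminogen activator, was at 24.3, 49.0 and 70.6 CPM in the Sham, D2 and D7 cells, the only one of 8 coagulation genes at level that was apart in D7. Lpl, lipoprotein lipase, was lower in both injured libraries, at 93.4, 12.3 and 21.1 CPM in the Sham, D2 and D7 cells. Of the leukocyte adhesion list, 1 of 6 genes was higher in D2, Selp, and 0 of 5 were apart in D7. Of the general endothelial list, 1 of 16 was higher in D2 and 1 higher and 1 lower in D7. Egfl7, a secreted endothelial protein, was at 372, 789 and 832 CPM in the Sham, D2 and D7 cells. Ptx3, a secreted pattern-recognition protein, was at 26.7, 29.4 and 63.3 CPM in the Sham, D2 and D7 cells, and without mixed cells at 70.7 CPM in D7 cells against 13.7 CPM in Sham cells.

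**Figure D4:**
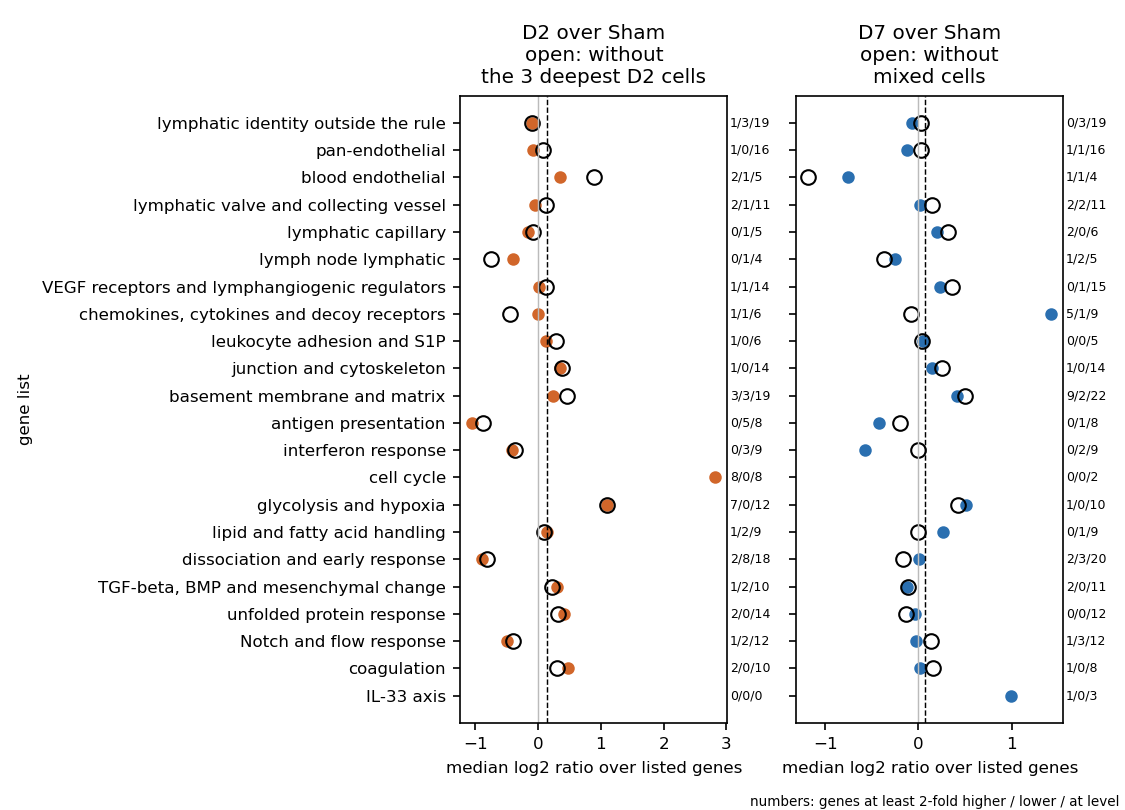
Median log2 ratio of the genes at level in 22 lists, D2 over Sham (left) and D7 over Sham (right), in lymphatic endothelial cells; filled points are all cells, open points leave out the 3 deepest D2 cells or the mixed cells and need at least 3 genes, and the dashed line is the median of all genes. Beside each list stand the genes higher, lower and at level; cell cycle and glycolysis lie furthest right in D2, and the chemokine list moves to -0.08 in D7 once mixed cells are left out.

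Chemokine genes that were higher in D7 depended on the mixed cells for most of the count. In the list of chemokines, cytokines and decoy receptors, 5 of 9 were higher and 1 lower in D7, against 4.61% and 4.51% of all genes, with a median log2 ratio of 1.42, against 2 of 6 higher, 1 lower and a median of -0.08 without mixed cells. Cxcl1, a neutrophil attractant, was at 26.1, 22.1 and 233 CPM in the Sham, D2 and D7 cells, and at 38.6 CPM in D7 cells against 7.16 CPM in Sham cells without them. Ccl2, a monocyte attractant, was at 24.3, 51.5 and 78.0 CPM in the Sham, D2 and D7 cells and kept its level without them, at 82.2 CPM in D7 cells against 22.8 CPM in Sham cells. Cxcl2 was at 35.8, 68.7 and 174 CPM in the Sham, D2 and D7 cells and, without mixed cells, at 197 CPM in D7 cells against 13.7 CPM in Sham cells, while all other D7 barcodes were at 3549 CPM, and its D7 direction turned once free RNA was subtracted. The chemokine receptor-like scavenger Ackr3, which takes up Cxcl12, was at 349, 240.3 and 172 CPM in the Sham, D2 and D7 cells.

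The series was built around Il33, an alarmin cytokine of stromal cells, and the lymphatic cells had little of it. Il33 was at 21.8, 12.3 and 80.1 CPM in the Sham, D2 and D7 cells, in 25, 3 and 14 cells. Its D7 level was 6.43 CPM without the mixed cells, against 16.9 CPM in Sham, so the higher D7 value was not kept. Il1rl1, the IL-33 receptor, had 1, 0 and 0 UMIs in the Sham, D2 and D7 cells, and Arg1, arginase-1 of reparative macrophages, had 0, 1 and 5.

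Between the injured times, D7 against D2, 151 of 4225 genes at level (3.57%) were higher and 143 (3.38%) lower, so that 294 (6.96%) were apart in all, and the median log2 ratio was -0.07. Both injured libraries enter the ratios to Sham as well, so these values are not independent of them. Of the genes apart, 51.4% were higher with CPM of all UMIs, 67.9% with the median of gene ratios as scale and 58.9% without the 20 most abundant and mitochondrial genes in the total. Leaving out the 3 deepest D2 cells, 68.0% were higher. The highest were Col3a1, Col1a1 and Col1a2, through the mixed D7 cells, and the lowest were Top2a, Cks2 and the imprinted gene Mest. Mest was at 16.9 CPM in D7 cells against 108 CPM in D2 cells, and D2 was at 57.0 CPM without its 3 deepest cells. Tgfb2 was 5.75-fold higher (95% interval 3.12 to 11.8) in D7 than in D2, and Gapdh 2.59-fold lower (95% interval 2.20 to 3.04). No gene of the lymphatic list, with 18 at level, was apart between D7 and D2.

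The cells fell into 5 groups when clustered on their own (Leiden, resolution 0.5; 8 groups at resolution 1). Their leading genes come from the clustering and are a description. Group 1, 168 cells of which 162 were Sham, 0 D2 and 6 D7, had the highest Lyve1 and Ccl21a levels, at 3160.1 and 24666 CPM, and was led by Cyp4b1 and Tppp3, with Igfbp3, Gpihbp1 and Aph1b among its first 12 genes. Group 2, 111 cells with 8 from Sham, 21 from D2 and 82 from D7, was led by Il1b, the cytokine interleukin-1 beta, and Cks2. S100a4, Stmn1, Tnc and Fblim1 followed. Il1b, Cks2 and Tnc had a UMI in 22.5%, 17.1% and 28.8% of these cells, so each was absent from most of them. Leading genes were not held to 0.25 of the CPM of all other barcodes, unlike the named genes. The part of free RNA in the Il1b level was not tested. Group 4, 73 cells with 66 from Sham, 1 from D2 and 6 from D7, had low Lyve1, at 223 CPM, and the highest Foxp2, Foxc2 and Cldn11 levels, at 565, 96.5 and 119 CPM. Cldn11, which encodes a claudin, had a UMI in 21 of the 73 cells, and Foxp2, a transcription factor of collecting vessels in mice, in 59. Other listed valve genes were not highest in group 4. Gja4 was at 93.7 CPM there against 142 CPM in group 2. Itga9 and Nfatc1 were at 345 and 182 CPM in group 4, against 495 and 192 CPM in group 3. Group 3, 94 cells with 65 from Sham, 4 from D2 and 25 from D7, had the highest Prox1 and Reln, at 1015 and 2357 CPM, and a median of 3811.5 UMIs per cell. Group 5 was the 19 mixed cells, all of them and no other, led by Col1a2. Groups 1 and 4 are nearly all of Sham and group 2 nearly all of injured libraries. A state and a library therefore cannot be told apart there, and no change in group size is read from these counts.

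**Figure D5:**
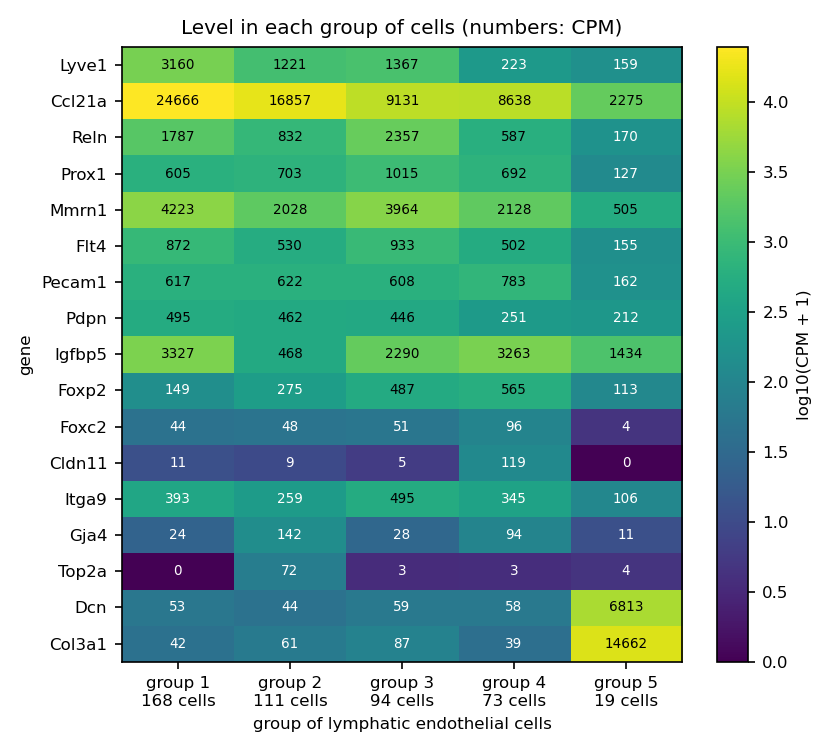
CPM of 17 genes, printed in each field and coloured as log10(CPM + 1), in the 5 groups of lymphatic endothelial cells with their numbers of cells. Lyve1 is highest in group 1, Cldn11 and Foxc2 in group 4, and Dcn and Col3a1 in group 5, the mixed cells.

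For orientation on the mouse genome (GRCm38, mm10, GENCODE annotation), Prox1 (ENSMUSG00000010175) on chromosome 1 from 190118035 to 190170714 (minus strand) and Igfbp5 (ENSMUSG00000026185) on chromosome 1 from 72857932 to 72874884 (minus strand) lie on the same chromosome, and Serpina3n (ENSMUSG00000021091) on chromosome 12 from 104406729 to 104414329 (plus strand) and Gja4 (ENSMUSG00000050234) on chromosome 4 from 127311421 to 127314039 (minus strand) on others; all are protein-coding genes.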

How the data were processed

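Raw UMI counts per gene and barcode were deposited by the authors as 1 filtered 10x matrix per library (3' v3 chemistry). Cell Ranger made them, version 7.1.0 per the file headers and 7.2.0 per the submitters' processing notes, which also name Seurat 5.0.1 and mm10; whether introns were counted is not given in the sources used here. Rows with the same symbol were summed (32285 rows, 32245 symbols). Barcodes with fewer than 300 genes or over 15% mitochondrial UMIs were left out (306 in Sham, 217 in D2, 363 in D7). Counts of the members were summed per library and scaled to CPM. Each group is 1 library of pooled mice, so the spread between animals is unknown and no test was run. Levels have exact Poisson intervals, ratios exact conditional binomial intervals and shares exact Clopper-Pearson intervals, all 95%. A fold against 0 UMIs used a floor of 3 UMIs over the class. Log2 ratios use CPM + 1, which understates changes of low genes. Named genes were the 6 highest and 6 lowest ratios per comparison with Sham (3 and 3 for D7 over D2, 12 and 6 against blood endothelial cells) among genes apart with at least 100 CPM and at least 0.25 of the CPM of all other barcodes, the 5 largest ratios per list, any listed gene whose role a sentence describes, and Il33, Il1rl1 and Arg1; the leading genes of the cell groups and listed genes below that level were chosen after their values were seen. The members, the lists and the markers were chosen with earlier results of these data known. Cells were clustered with scanpy 1.11.5 and leidenalg 0.10.2 on 1000 variable genes, 10 components and 15 neighbours. Ratios and intervals used SciPy 1.17.1 under Python 3.11.15, and the summing and calling steps were tested on simulated data. Free RNA in member barcodes, estimated from neutrophil and B cell genes, was 0.604% of UMIs in Sham, 0.789% in D2 and 4.51% in D7. Some genes that the naming rule covers are not reported here.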

Additional observations from a re-analysis of the deposited data

How the results depend on the processing

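No paired analysis was possible because each group is 1 library. Counts of genes apart stayed within 1.5 times of the main counts under the other members' rules, totals and pseudocounts tried, with these exceptions. Scaled by the median of gene ratios, 203 genes were higher and 423 lower in D2 over Sham, and 94 lower in D7 over D2. With no level filter beyond 5 UMIs, 1024 were higher and 1855 lower in D2 over Sham, 998 and 969 in D7 over Sham, and 1434 and 712 in D7 over D2, and the blood endothelial median of D7 over D2 was 0.82. Without the 3 deepest D2 cells, 74 were lower in D7 over D2, the log2 ratio of Top2a in D2 over Sham was -0.49 and that of Pcna in D7 over D2 was 0.19. Like counts did not mean the same genes. With the mean over cells, 216 of 359 higher genes in D2 over Sham were kept. In D7 over D2, that setting kept 75 of 151 higher and 70 of 143 lower genes. Without mixed cells 75 of those 151 were kept, and without the 3 deepest D2 cells 42 of those 143. At 500 genes and 1000 UMIs per barcode, the Sham share of all barcodes was 4.99%, the non-leukocyte shares of D2 and Sham were 8.20% and 8.22%, and the D7 over Sham ratio was 0.423. With the member and leukocyte rules both read on 1000 UMIs, the non-leukocyte shares of D2 and D7 were 1.27% and 1.86%. Their ratios to Sham were 0.221 and 0.325, and the ratio of D7 over D2 turned to 1.47.

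Directions that turned are given as log2 ratios, and the cause was not tested. With the mean over cells they were 0.46 for Cd74, 0.45 for Apoe and 0.26 for Zfp36 in D2 over Sham, -0.11 for Ccl7 in D7 over Sham, and in D7 over D2 -0.42 for Cxcl2, -0.49 for Cd74, 0.034 for Pcna, -0.70 for Apoe, -0.17 for Zfp36 and -0.41 for the IL-33 list median. Without mixed cells they were -0.080 for the chemokine median, -1.27 for Il33 and -0.066 for Dcn in D7 over Sham, and -0.84 for Il33, -0.19 for Timp1 and -0.60 for Sparc in D7 over D2. With at least 4 rule genes, Ccl7 in D7 over Sham was at -0.15 and Cxcl2 in D7 over D2 at -0.19. With free RNA subtracted, the log2 ratios of Cxcl2 and Lyz2 in D7 over Sham were -1.0 and -2.99. Without called doublets, the chemokine median of D7 over D2 was -0.079 and Cxcl2 was at -0.34. The settings on mixed cells, on the 3 deepest D2 cells and on ribosomal RNA-like transcripts were chosen after seeing the data. The number of cells limits the D2 values: 0 of the 25 D2 cells left after thinning allows a share of cells with a UMI of up to 12%, against 2.34% in D7 and 1.00% in Sham.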
